A study of Mus musculus with 2 samples.

Results

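The constitutive subunits of the proteasome were compared between SVEC4-10 and MS-1 cells, lines of mouse endothelial origin, each read by 1 Affymetrix array. Members were chosen by gene symbol alone: every probe set assigned to a single gene whose symbol begins Psma, Psmb, Psmc or Psmd followed by a digit, leaving out the inducible subunits Psmb8, Psmb9 and Psmb10. This gave 76 probe sets of 37 genes, among 18193 genes named on the array. SVEC4-10 derives from an axillary lymph node and was grown in DMEM with 10% fetal calf serum. MS-1 derives from the microvasculature of the pancreas and was grown in DMEM with 5% fetal calf serum. Both lines carry the SV40 large T antigen as their immortalising gene, and both were taken at confluence after 3 to 5 days, up to passage 5. Each line was read from 1 culture, so differences are given without p-values, and serum, array and line cannot be told apart.

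The proteasome is the cell's main protease for proteins tagged with ubiquitin. Its 20S core is a barrel of outer rings of α subunits, which gate the entry, and inner rings of β subunits, some of which cut the substrate. The 19S regulatory particle binds ubiquitin chains, removes them, and unfolds the substrate with a ring of ATPases. In cells exposed to interferon the cutting subunits are partly replaced by inducible ones, which changes the peptides made for antigen presentation.

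The signals are linear intensities scaled to the same trimmed mean on both arrays, and each log2 ratio sets SVEC4-10 over MS-1. Background, the 95th percentile of 129 probe sets of genes for sensory receptors and hair keratin-associated proteins, was 17.6 for SVEC4-10 and 16.3 for MS-1. Of 12 endothelial markers, 3 were above background in SVEC4-10 and 11 in MS-1, with summed signals of 143 and 28707. Pecam1, the endothelial adhesion molecule CD31, had signals of 1.27 in SVEC4-10 and 4777 in MS-1. Of 4 lymphatic endothelial markers, 2 were above background in SVEC4-10 (Flt4 and Pdpn) and 3 in MS-1 (Lyve1, Flt4 and Pdpn). Of 10 mesenchymal markers, 9 were above background in SVEC4-10 and 2 in MS-1, with summed signals of 34368 and 146. Of 5 mesothelial markers, 5 were above background in SVEC4-10 and 2 in MS-1. The array labelled SVEC4-10 thus lacked signal for most of the 12 endothelial markers, and whether this difference in cell character bears on the proteasome values was not tested. In bulk RNA, fewer cells expressing a gene and less of its RNA per cell cannot be told apart.

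Proteasome subunit genes had close signals on the 2 arrays. Of the 37 genes, 35 were measured, that is, above background on at least 1 array, and all 35 were above background on both. At the probe set used for each gene, 0 of 35 were higher by 2-fold or more in SVEC4-10 and 0 of 35 higher by 2-fold or more in MS-1. Among all 12583 genes measured, 27.4% were this far apart, 15.3% with the higher signal in SVEC4-10 and 12.1% with it in MS-1. Most members were bright, with 34 of 35 in the brightest tercile of genes, where 9.35% were higher by 2-fold or more in SVEC4-10 and 10.2% in MS-1. Within 1.5-fold lay 31 of the 35 members (88.6%), against 60.8% of the 4194 genes in the brightest tercile. The 4 outside were Psma2, Psmd11, Psmd5 and Psmc3ip, of which Psmd5 and Psmc3ip are not subunits of the assembled particle. Of its 31 subunits, 29 lay within 1.5-fold.

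The members' log2 ratios had an SD of 0.35 over 35 genes, against 1.01 over the brightest tercile of genes and 1.38 over all genes measured. The error of a single log2 ratio, taken as the SD between probe sets of one gene, was 0.40 for the brightest 1604 genes with several probe sets and 0.48 over all 4813. A few genes with discordant probe sets widen these values: a robust SD, from the median absolute difference, was 0.23 for the brightest 1604 genes. The members' SD of 0.35 thus lay between the robust and the plain error of these bright genes. The plain error was 0.70 over the 17 members with several probe sets and 0.26 without Psmc6 and Psmd6, which were left out after their values were seen. The robust error over the same 17 members was 0.079, well below the members' SD of 0.35. The error holds no variation between cultures. The members' median log2 ratio was -0.12, with 12 members above 0 and 23 below. The median was 0.018 for all genes measured and -0.039 for the brightest tercile, where 2191 of 4194 genes were below 0. Scaling to the poly-A controls added to the RNA, which were 1.43-fold brighter on the array of SVEC4-10, lowers every log2 ratio by 0.51. This shift is the median of 21 control probe sets, whose log2 ratios ran from 0.28 to 0.89. The scaling gave medians of -0.64 for the members and -0.49 for all genes, and turned every ratio between 0 and 0.51 negative. Psmb7, Psmd11 and Psmd5 passed 2-fold towards MS-1, while 34.0% of all genes measured were at least 2-fold apart in either direction.

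**Figure D1:**
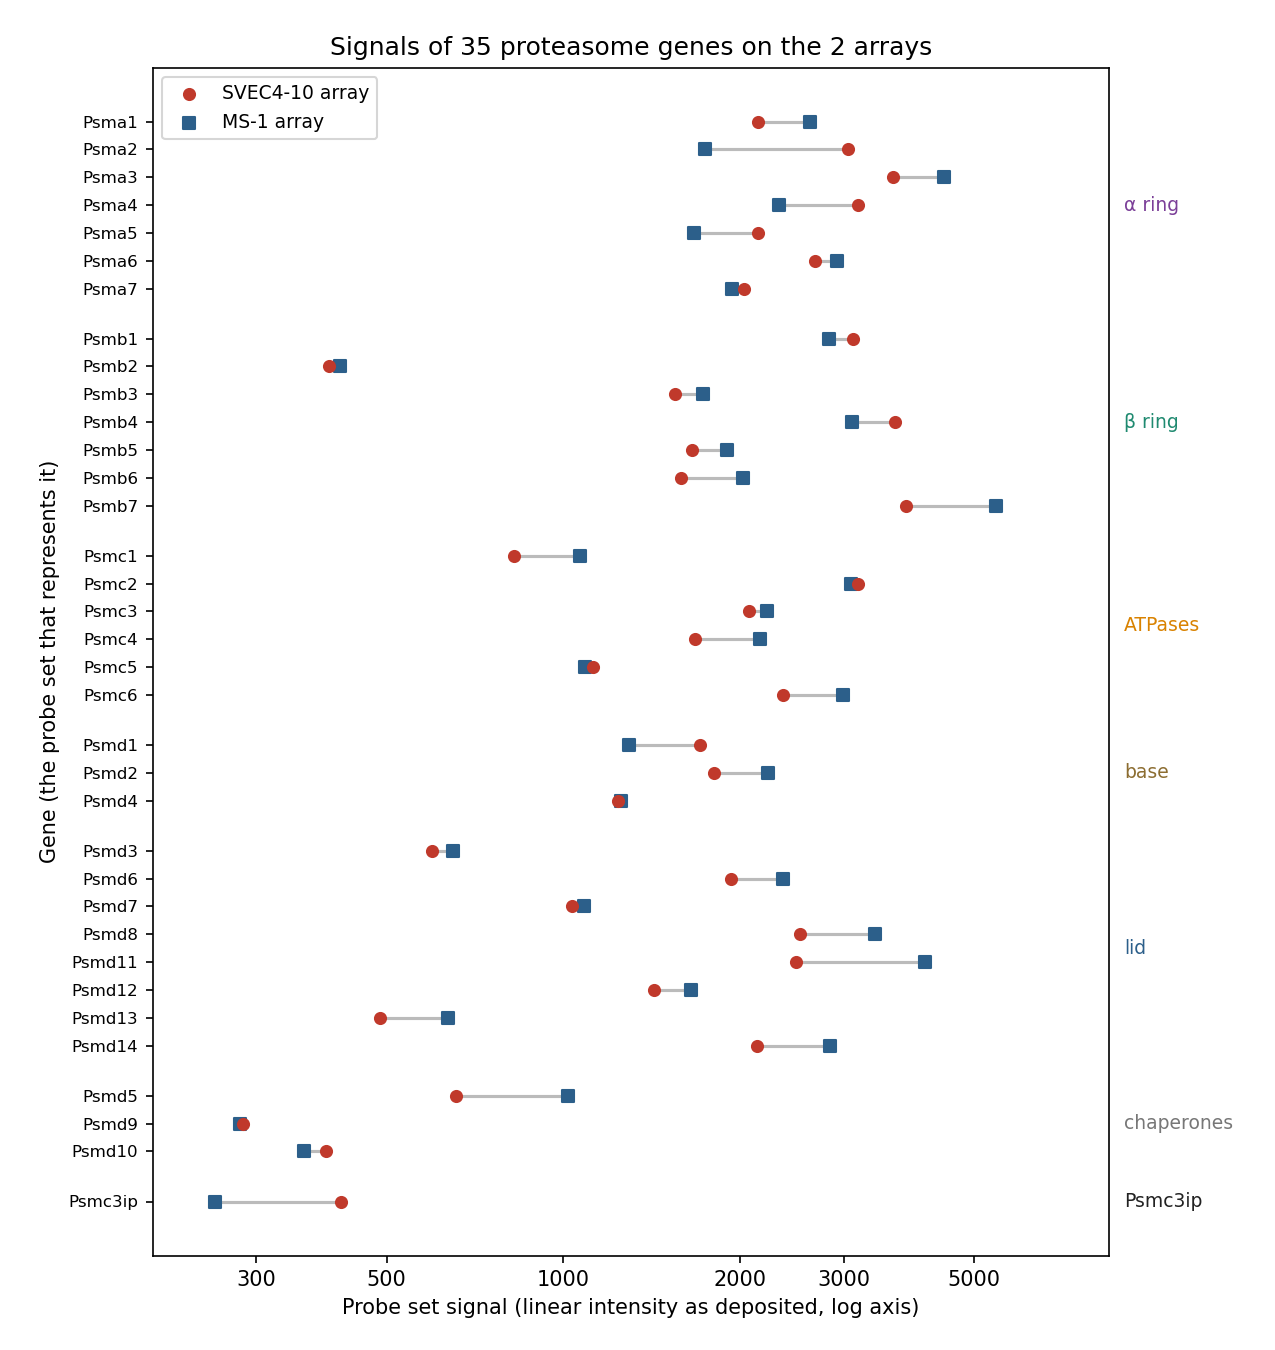
Signal of each of the 35 measured genes in SVEC4-10 (circles) and in MS-1 (squares), on a log axis, at the probe set that represents the gene; genes are grouped by subcomplex. The 2 symbols of a gene lie close together throughout, all 8 lid genes have the circle left of the square, and the widest gaps are those of Psma2, Psmc3ip, Psmd11 and Psmd5.

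The α ring held genes on both sides of 0. Of its 7 genes, 4 had positive and 3 negative log2 ratios, with a median of 0.065 that became -0.45 with poly-A scaling. Psma2 had signals of 3049 in SVEC4-10 and 1743 in MS-1, a 1.75-fold difference (log2 ratio 0.81), which was the highest ratio of any member and was read by 1 probe set. Psma4 had signals of 3176 and 2327 in SVEC4-10 and MS-1 (0.45), and Psma5 had 2148 and 1669 (0.36), a value its second bright probe set repeated at 0.35. These 3 genes had the highest ratios of the ring, all beyond the robust error of 0.23, and Psma2 and Psma4 also beyond the plain error of 0.40.

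The other α subunits lay lower or close to 0. Psma1 had signals of 2143 in SVEC4-10 and 2630 in MS-1 (-0.30), and Psma3, whose tail helps to close the gate, had 3647 and 4450 (-0.29). Psma6 had 2681 and 2923 (-0.12), and Psma7 had 2027 and 1939 (0.065). All 4 ratios were within the plain error of 0.40, while Psma1 and Psma3 were beyond the robust error of 0.23.

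The β ring carries the cutting sites on Psmb5, Psmb6 and Psmb7, while Psmb1, Psmb2, Psmb3 and Psmb4 have no cutting site of their own. All 3 cutting subunits had lower signals in SVEC4-10. Psmb5, the chymotrypsin-like subunit, had 1656 in SVEC4-10 and 1899 in MS-1 (-0.20). Psmb6, the caspase-like subunit, had 1583 and 2021 (-0.35). Psmb7, the trypsin-like subunit, had 3837 and 5457 (-0.51). Psmb7 was beyond the plain error of 0.40, Psmb6 only beyond the robust error of 0.23, and Psmb5 within both.

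The non-cutting β subunits lay on both sides of 0. Psmb1 had signals of 3113 in SVEC4-10 and 2834 in MS-1 (0.14), and Psmb4 had 3673 and 3096 (0.25), with 0.27 at its second probe set. Psmb2 had 399 and 416 (-0.061), and Psmb3 had 1547 and 1725 (-0.16), with an equal ratio at its second probe set. The 7 genes had a median of -0.16, and all 7 were within 1.5-fold.

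At the deposited scaling and the probe sets used, the inducible subunits that take the place of the cutting ones were further apart than their constitutive counterparts. They did not share a direction. Psmb9, which replaces Psmb6, had signals of 289 in SVEC4-10 and 49.4 in MS-1, a 5.85-fold difference, so the log2 ratio of Psmb9 exceeded that of Psmb6 by 2.90. Psmb10, which replaces Psmb7, had 569 and 354 (0.68), which exceeded the ratio of Psmb7 (-0.51) by 1.19. In size alone, the ratios of Psmb10 and Psmb7 differed by less than the robust error of 0.23. Psmb8, which replaces Psmb5, had 127 and 237 (-0.90), with -0.26 at a second, dim probe set, near the -0.20 of Psmb5. Psmb8 thus lay below Psmb5, by 0.70, and was past 2-fold towards MS-1 with poly-A scaling. That scaling put Psmb10 at 0.17 and Psmb7 at -1.02, so in this pair the constitutive subunit was then further apart. Psmb9 (2.03) and Psmb8 (-1.41) stayed further apart than Psmb6 (-0.86) and Psmb5 (-0.71). Of 20 measured interferon-response genes, 14 were higher by 2-fold or more in SVEC4-10 and 0 in MS-1 (median 2.42). The shares over all genes measured were 15.3% and 12.1%. The part of the interferon-response genes in the Psmb9 value was not tested.

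**Figure D2:**
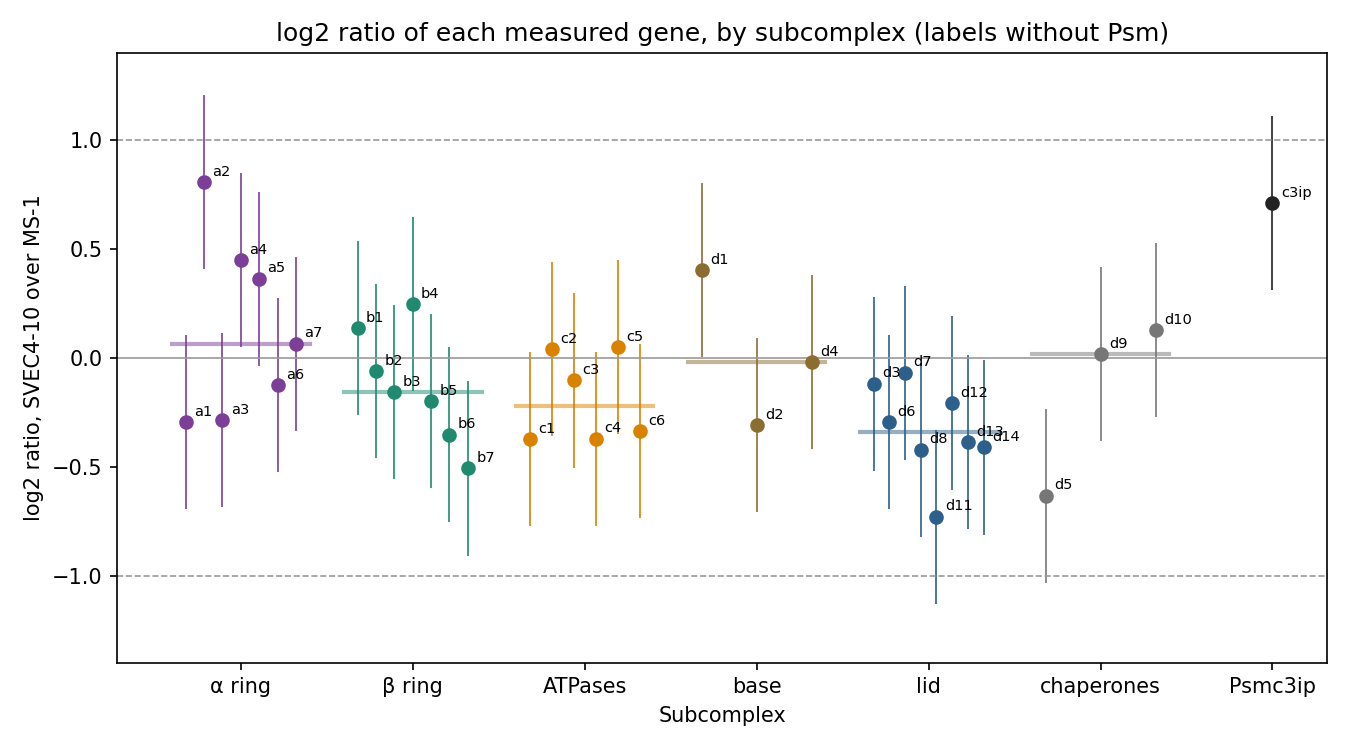
log2 ratio of SVEC4-10 over MS-1 for each measured gene, by subcomplex, with labels lacking the prefix Psm; error bars are ± 0.40, the plain SD between probe sets of one gene in the brightest tercile, thick bars are medians and dashed lines mark 2-fold. The α ring spans -0.30 to 0.81, while the lid lies from -0.73 to -0.069 with no gene above 0 at the deposited scaling shown.

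The 6 ATPases of the 19S base, Psmc1 to Psmc6, form the ring that pulls the substrate into the core. None was over 1.5-fold apart at the probe set used, and their median was -0.22. Psmc2 had signals of 3176 in SVEC4-10 and 3092 in MS-1 (0.039), and Psmc5 had 1123 and 1086 (0.049). Psmc3 had 2069 and 2224 (-0.10). These 3 genes were within 0.11 of 0 on the log2 scale.

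The remaining ATPases were dimmer in SVEC4-10 by similar amounts. Psmc1 had 823 in SVEC4-10 and 1067 in MS-1 (-0.37), and Psmc4 had 1673 and 2164 (-0.37), although its second probe set gave -0.029. Psmc6 had 2366 and 2990.4 (-0.34) at its brightest probe set, but its other probe sets pointed the other way, as described further on. With probe sets of the unique class alone the median of the ring was 0.0047.

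Beside the ATPases the base holds the scaffolds Psmd1 and Psmd2 and the ubiquitin receptor Psmd4. Psmd1 had signals of 1709 in SVEC4-10 and 1292 in MS-1 (0.40). Psmd2 had 1803 and 2232 (-0.31), and Psmd4 had 1237 and 1254 (-0.020). The 2 scaffolds thus differed in sign, both beyond the robust error of 0.23 and neither beyond the plain error of 0.40 by more than 0.01.

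At the deposited scaling, the lid was the only subcomplex in which every gene had a lower signal in SVEC4-10. Its 8 of 8 log2 ratios were below 0, with a median of -0.34. Below 0 were 6175 of all 12583 genes measured and 2191 of the 4194 genes in the brightest tercile. All 8 were also below the median of all genes with quantile normalization, the mean over probe sets or the probe set with the smallest ratio. With probe sets of the unique class alone, all 6 that could be measured were below it. Poly-A scaling and centring on a median shift the lid and all genes alike. Other background settings left the lid's median at -0.34, so none of these settings was a check on the count. With poly-A scaling every gene of the β ring, the ATPases and the rest of the base was below 0 too, and 6 of 7 of the α ring. The lid removes ubiquitin chains before the substrate enters the core. Psmd14, the deubiquitinating enzyme, had signals of 2135 in SVEC4-10 and 2841 in MS-1 (-0.41). Psmd7, the inactive partner it pairs with, had 1034 and 1085 (-0.069), and the ratios of the partners differ by less than the plain error of 0.40.

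Psmd11, a scaffold that clamps the regulatory particle onto the core, had the lowest ratio of any member. Its signals were 2489.8 in SVEC4-10 and 4128 in MS-1, a 1.66-fold difference (-0.73). It was read by 6 measured probe sets, and the 4 brightest gave -0.87, -0.73, -0.67 and -0.28. The direction was thus the same at each of these, and the lowest size was within the plain error of 0.40. The probe set that represents the gene is of a class whose probes may be shared with other genes, and the next brightest, of another class, gave -0.67.

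The other lid scaffolds lay between these values. Psmd8 had signals of 2531 in SVEC4-10 and 3391 in MS-1 (-0.42), and Psmd13 had 487 and 637 (-0.39), with ratios of -0.28 and -0.54 at its other measured probe sets. Psmd12 had 1428 and 1648 (-0.21), and Psmd3 had 597 and 648 (-0.12). Psmd6 had 1927 and 2364 (-0.30) at the probe set used. The lid and the α ring overlapped in range, and the difference between their medians, -0.34 against 0.065, could not be tested with 1 array per line.

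Chaperones that help to assemble the base share the Psmd name without staying in the finished particle. Psmd5 had signals of 656 in SVEC4-10 and 1017 in MS-1 (-0.63, 1.55-fold). Psmd9 had 285 and 282 (0.016), and Psmd10, also known as gankyrin, had 395 and 361 (0.13). Of these 3 chaperones Psmd5 was beyond both errors, 0.40 and 0.23, and the other ones were within both.

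The remaining members are not part of the particle found in most cells. Psma8, a subunit of the testis, and Psmb11, a subunit of the thymus cortex, were the 2 genes not measured, with signals of at most 5.19 on either array. Psmc3ip matches the rule by its symbol only, since it encodes a partner of meiotic recombinases and no proteasome subunit. It had signals of 417 in SVEC4-10 and 255 in MS-1 (0.71), and 312 and 192 (0.70) at its second probe set. Without the chaperones and Psmc3ip, the 31 subunits of the assembled particle had a median of -0.16 and an SD of 0.32.

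**Figure D3:**
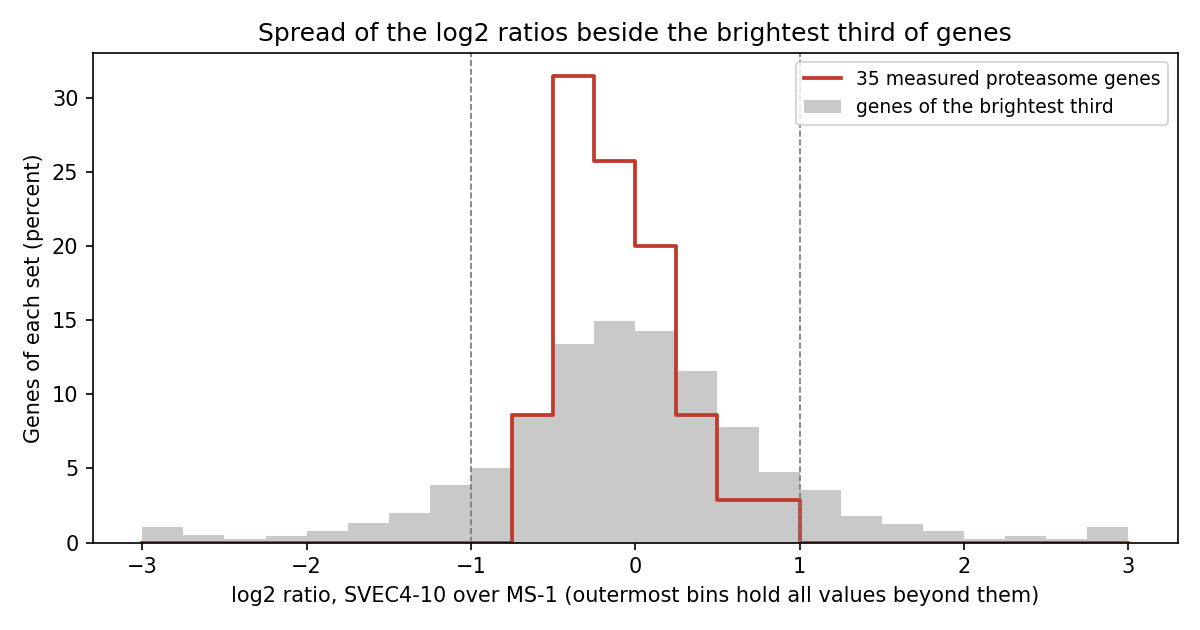
Percent of genes in bins of log2 ratio, SVEC4-10 over MS-1, for the 35 measured genes chosen by symbol (line), 31 of them subunits of the assembled particle, and the 4194 genes in the brightest tercile of signal (bars); dashed lines mark 2-fold and the outermost bins hold all values beyond them. The 35 genes all fall between -0.73 and 0.81, while 19.6% of the bright genes lie at 2-fold or beyond.

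Of the 76 probe sets, 62 were above background on at least 1 array, 59 of them on both, and 14 on neither. At least 2-fold higher in SVEC4-10 were 2 probe sets, and 1 was higher by 2-fold or more in MS-1, against 14.5% and 11.9% of the 23074 measured probe sets with 1 gene. These 3 belonged to Psmc6 and Psmd6, whose probe sets contradicted each other. Of 17 genes with several measured probe sets, 11 had them within 0.5 log2 units and 4 had them over 1 log2 unit apart, namely Psmc6, Psmd6, Psmb1 and Psmd11. In Psmb1 and Psmd11 the deviating probe sets were dim, with signals under 70 on both arrays.

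Psmd6, a lid scaffold, had the widest gap. One probe set had signals of 1927 in SVEC4-10 and 2364 in MS-1, whereas the other had 128 and 1864, a 14.6-fold difference (-3.86). On the MS-1 array both probe sets were thus bright, and in SVEC4-10 only the first was. Psmc6 went the other way: its brightest probe set gave -0.34, while a second had 767 in SVEC4-10 and 357 in MS-1 (1.10) and the remaining one had 178 and 63.7 (1.48). The parts of the transcripts that these probe sets read are not known here, and the cause of the disagreement was not tested.

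**Figure D4:**
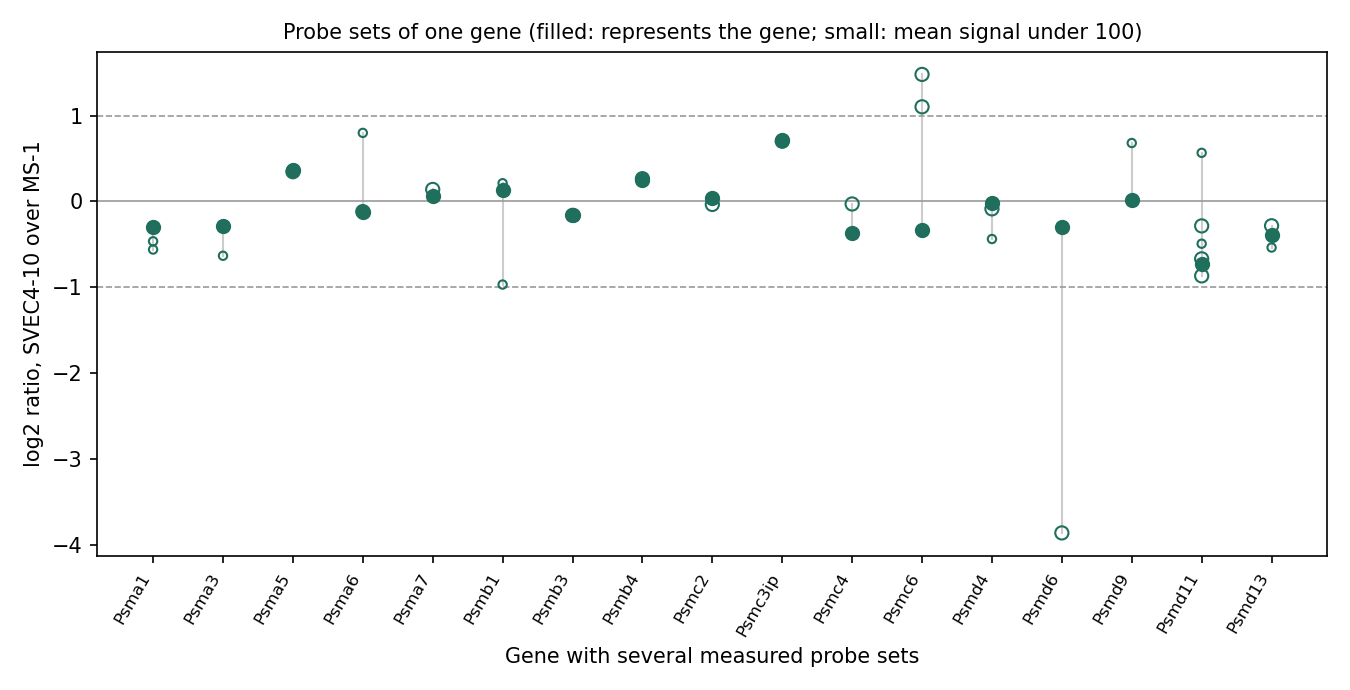
log2 ratio of SVEC4-10 over MS-1 at each measured probe set of the 17 genes that have several; filled circles represent the gene, small circles have a geometric mean signal under 100, and dashed lines mark 2-fold. Most genes show circles close together, while Psmd6 reaches -3.86 and Psmc6 reaches 1.48 at a further probe set.

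Among genes that build or control the proteasome, some were at least 2-fold apart, as were 27.4% of all genes measured. The core is assembled with the paired chaperones Psmg1 and Psmg2, then Psmg3 and Psmg4, and with Pomp, which helps the β ring to mature. Psmg1 had signals of 478 in SVEC4-10 and 986 in MS-1 (-1.04), and its partner Psmg2 had 767 and 361 (1.09), with 1.35 at its second measured probe set. Psmg4 had 410 and 153 (1.42), while its partner Psmg3 had 325 and 353 (-0.12). Partners thus differed from each other by over 1.5 log2 units. Of the 5 genes 2 were higher by 2-fold or more in SVEC4-10 and 1 in MS-1. The shares over all genes measured were 15.3% and 12.1%. Pomp had 1923 and 3221 (-0.74). With poly-A scaling Psmg2 and Psmg4 were under 2-fold (0.57 and 0.91) and Pomp was past it (-1.26). Then 0 of the 5 were 2-fold higher in SVEC4-10 and 2 in MS-1, and 34.0% of all genes were 2-fold apart in either direction.

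Of 4 measured genes for caps other than the 19S particle and for the inhibitor, 0 were at least 2-fold apart, and with poly-A scaling 1, Psme3, was higher in MS-1. The share over all genes measured was 27.4%, or 34.0% with poly-A scaling. Psme1, an interferon-induced activator subunit, had signals of 2109 in SVEC4-10 and 1476 in MS-1 (0.51, and 0.0022 with poly-A scaling). Psme3, a nuclear activator, had 212 and 322 (-0.60), Psme4 had 550.1 and 719 (-0.39), and the inhibitor Psmf1 had 253 and 280 (-0.14). Among components and enzymes bound to the 19S particle, 0 of 6 were 2-fold apart, or 2 with poly-A scaling, both higher in MS-1 (Ecpas and Ube3c). The list includes Sem1, a small lid subunit outside the naming rule (-0.23), and the deubiquitinating enzymes Usp14 (-0.019) and Uchl5 (-0.11). For Usp14 the 4 probe sets ran from -0.29 to 0.88.

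Regulators of proteasome genes were mostly dimmer in SVEC4-10. Nfe2l1 encodes NRF1, the factor that raises proteasome genes when the proteasome is short of capacity, and Nfe2l2 encodes NRF2, its relative in the response to oxidants. Nfe2l2 had signals of 872 in SVEC4-10 and 1937 in MS-1 (-1.15), and Nfe2l1 had 311 and 510.5 (-0.72). Of the small Maf proteins that pair with both factors, Mafk had 104 and 419 (-2.01), Maff had 81.4 and 131 (-0.69), and Mafg had 279 and 306 (-0.13). Ngly1, which removes the glycans of NRF1, had 460.2 and 292 (0.66), and Keap1, which holds NRF2 down, had 290.1 and 393 (-0.44). Of these 7 genes, 2 were higher by 2-fold or more in MS-1 and 0 in SVEC4-10, with a median of -0.69, against -0.12 for the members. Under 2-fold apart were 71.4% of them and 72.6% of all genes measured, so this count was near the share of all genes. With poly-A scaling Nfe2l1 and Maff passed 2-fold as well, which made 4 of 7 higher in MS-1, at a median of -1.20 against -0.64 for the members. At that scaling 34.0% of all genes measured were at least 2-fold apart in either direction.

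These factors bind a site with the core TGACNNNGC. Among RefSeq promoter windows of build GRCm38.p6, which run from 250 bases before to 50 bases after a gene's start, 30 of the 37 genes had a window. Windows of a single chromosome were left out before counting, so any member there would count as having no window. Either strand of TGACNNNGC was found for 5 of these 30 genes, or 15.6% of 32 windows, against 12.4% of all 32851 windows kept. The share among the members was thus near that of all windows, so the letters did not set the members apart. The 5 stretches are shown to give the place of these letters. Whether the regulators that were dimmer in SVEC4-10 bear on these genes was not tested. Each is written in the direction of the gene, with the matched letters in capitals.
Psmb5, minus strand, chr14:54618004-54618072: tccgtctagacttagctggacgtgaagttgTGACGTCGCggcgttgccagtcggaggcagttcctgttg
Psmb6, plus strand, chr11:70525318-70525356: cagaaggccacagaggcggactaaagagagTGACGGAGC
Psmd9, plus strand, chr5:123228129-123228189: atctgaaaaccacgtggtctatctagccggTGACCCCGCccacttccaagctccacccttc
Psmc6, plus strand, chr14:45329574-45329635: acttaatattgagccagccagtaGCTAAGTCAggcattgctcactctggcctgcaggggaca
Psmd12, plus strand, chr11:107479278-107479319: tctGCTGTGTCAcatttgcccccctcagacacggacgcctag
In Psmc6 and Psmd12 the match is on the opposite strand, so the capitals read as the reverse complement.

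The 5 genes with these letters overlapped the other members in their ratios. Their log2 ratios ran from -0.35 to 0.016 with a median of -0.21, against a median of -0.14 and a range of -0.73 to 0.81 for the 24 other measured genes with a window. The CCAAT box, a common promoter element, was found in 40.6% of the members' windows and in 37.4% of all windows. The letters GAAANNGAA, the core of the interferon-stimulated response element, were found in 15.6% of the members' windows and 8.56% of all windows. The 5 measured genes with that core, namely Psmb3, Psmb4, Psmc2, Psmd4 and Psmd9, had log2 ratios from -0.16 to 0.25. A match is a description of letters in the window and does not show that a factor binds there.

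Other large complexes were set beside the proteasome. The COP9 signalosome, whose subunits resemble those of the lid, had 0 of 9 genes at least 2-fold apart and a median of -0.048. The CCT chaperonin, a folding chamber, had 0 of 8 genes 2-fold apart and 8 of 8 ratios below 0 at the probe sets used. Its median was -0.34, the same size as that of the lid. The 7 probe sets of Cct4 ran from -0.72 to 1.22. With the mean over probe sets the medians were -0.22 for the chaperonin and -0.41 for the lid. With the unique class alone they were -0.50 and -0.36. Of 44 measured cytosolic ribosomal protein genes, 1 was higher by 2-fold or more in SVEC4-10 and 2 in MS-1, with a median of -0.21. The genes past 2-fold were read by probe sets that were dim beside most of the list. They were Rpl39 (113 in SVEC4-10 and 27.7 in MS-1), Rps24 (90.6 and 197) and Rps27 (84.0 and 211). The SDs of the COP9 signalosome, the chaperonin and the ribosomal genes were 0.30, 0.23 and 0.47, against 0.32 for the 31 proteasome subunits. The COP9 signalosome and the chaperonin thus had no wider spread. By the interquartile range the ribosomal genes were narrower too, with 0.27 against 0.39 for the 31 subunits, and 36 of the 44 were below 0. With poly-A scaling the genes 2-fold higher in MS-1 numbered 1 for the COP9 signalosome, 2 for the chaperonin and 4 for the ribosomal proteins. At that scaling 34.0% of all genes measured were at least 2-fold apart in either direction, against 27.4% at the deposited one.

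**Figure D5:**
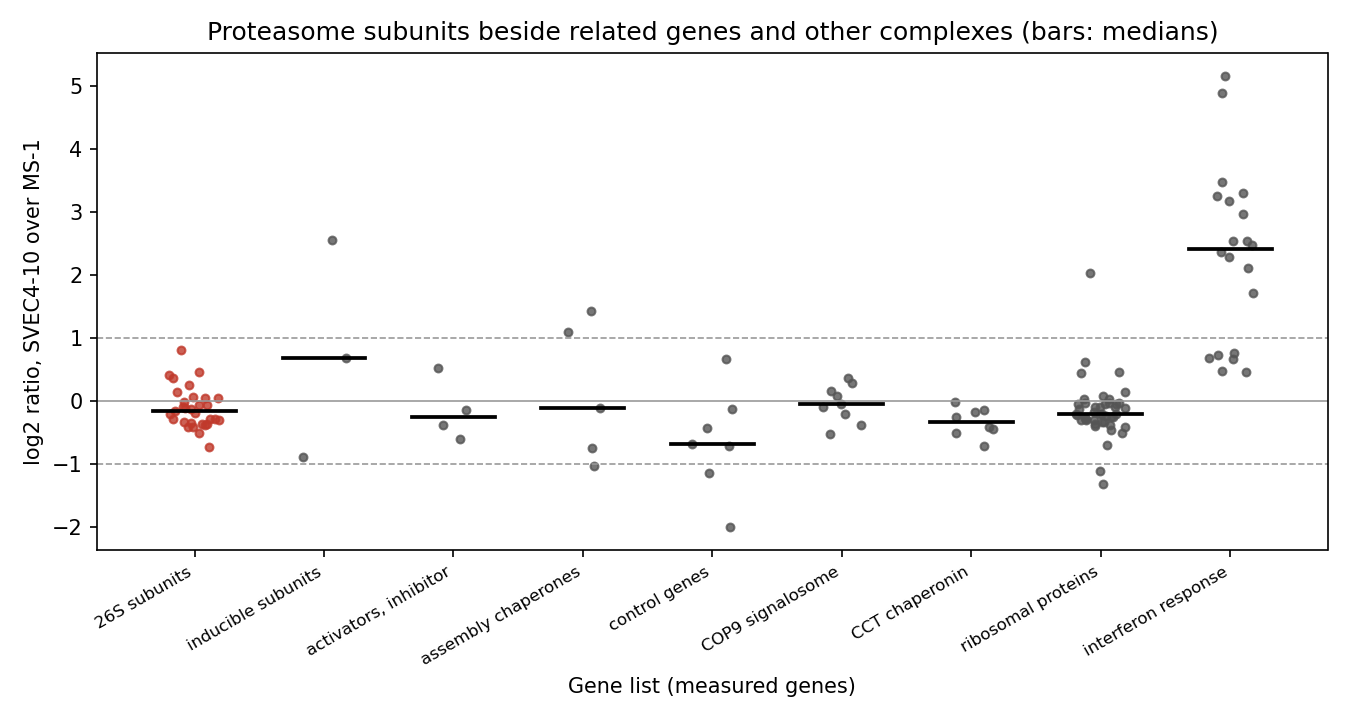
log2 ratio of SVEC4-10 over MS-1 for every measured gene of the 31 subunits of the 26S particle and of 8 further lists; black bars are medians and dashed lines mark 2-fold. The subunits lie between -0.73 and 0.81 with an SD of 0.32, against 0.30 for the COP9 signalosome and 0.23 for the CCT chaperonin, while assembly chaperones and control genes reach past 2-fold and interferon-response genes have a median of 2.42.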

How the data were processed

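For each line's Affymetrix array, 6 µg of total RNA was turned into biotin-labelled cRNA, per the labels. The authors deposited 1 linear intensity for every probe set, and how they summarised the probes is not stated in the sources at hand. The 2%-trimmed mean was 150.001 for SVEC4-10 and 150.001 for MS-1, and no further scaling was applied. Of 45101 probe sets, 34945 had 1 gene by the platform annotation, 932 had several, 9160 were unnamed here and 64 were controls. Symbols were updated by gene identifier to RefSeq GRCm38.p6, which changed 0 member probe sets. Signals were raised to the background of their array before the log2 ratio was taken. A gene was represented by its brightest measured probe set over both arrays, using one of the cross-hybridising class (suffix x) only where it had no other. The class shared between genes (suffix s) was not avoided. Called means at least 2-fold apart. The error is the root mean square difference between the log2 ratios of a gene's 2 brightest probe sets, divided by the square root of 2, and the robust error takes the scaled median absolute difference instead. The number of arrays limits the precision. The steps were tested on simulated arrays. Every member is accounted for, and comparison genes come from lists, all chosen with earlier results of these data known. A planned comparison of protein sequences was not run, since no protein table was at hand. Adrm1, Paaf1, Ddi2, Psme2 and the ubiquitin genes were not analysed here. Python 3.11.15, numpy 2.4.6 and pandas 2.3.3 were used. Alternatives changed the normalization, the background, the probe set per gene and the threshold.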

Additional observations from a re-analysis of the deposited data

How the results depend on the processing

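Scaling to the poly-A controls moved the members' median to -0.64 and put 3 genes past 2-fold towards MS-1 in place of 0. It left 0 probe sets higher by 2-fold or more in SVEC4-10 and 11 in MS-1. Of all genes measured, 34.0% were at least 2-fold apart in either direction with poly-A scaling, against 27.4% without it. With probe sets of the unique class alone, 1 gene was higher by 2-fold or more in SVEC4-10 (Psmc6), and with the mean over probe sets 1 was higher in MS-1 (Psmd6), since these genes' probe sets disagree. A threshold of 1.5-fold gave 2 genes in each direction and 7 probe sets in each direction, and one of 4-fold gave 0 probe sets higher in SVEC4-10. Probe sets higher by 2-fold or more in MS-1 numbered 2 with quantile normalization, 3 with background at the 40th percentile and 3 with no background floor. The SD over the members stayed between 0.32 and 0.51, and their median minus that of all genes between -0.18 and -0.12. Alternatives for probe sets, subcomplexes and comparison genes were chosen after seeing the data. No paired analysis was possible because each line has 1 array.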

Other observations

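Genes that deliver substrates to the proteasome were also read. Of 7 measured genes, 1 was higher by 2-fold or more in SVEC4-10 and 0 in MS-1, with a median log2 ratio of -0.70. The shares over all genes measured were 15.3% and 12.1%. With poly-A scaling the counts were 0 in SVEC4-10 and 4 in MS-1 (Rad23b, Ubqln2, Ufd1 and Nploc4), at a median of -1.21. At that scaling 34.0% of all genes measured were at least 2-fold apart in either direction. Ubqln1, a ubiquitin shuttle, had signals of 1139.8 in SVEC4-10 and 455 in MS-1 (1.33, and 0.37 at its second measured probe set), and its relative Ubqln2 had 1546 and 2554 (-0.72). Rad23b, another shuttle, had 957 and 1745 (-0.87), although its 3 measured probe sets ran from -0.87 to 0.82. Vcp, the segregase that extracts ubiquitinated proteins, had 2785 and 3429 (-0.30), and its cofactors Ufd1 and Nploc4 had -0.79 and -0.70.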
